A study of Mus musculus with 12 samples.

Results

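The comparison described here set vehicle-treated brain slices labelled as carrying Cre against vehicle-treated slices without it, both with floxed Mef2c. Genes entered it when their mean CPM (its reads scaled to 1000000 counted reads in each library) was 1 or more over the 12 columns of the table, as was so for 13048 of 21967 symbols. The slices were organotypic cultures of mouse brain, prepared from pups on postnatal day 6 and cultured for 8 days before polyadenylated RNA was sequenced. The title of the study names its question, the role of MEF2C on both sides of the synapses from cortical layer 4 to layer 2/3.

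Vehicle slices labelled Cre had the genotype CaMKiiα Cre +/-; Mef2c fl/fl and received 1% DMSO with 1% water (3 libraries). Vehicle slices without Cre were Mef2c fl/fl and received the same vehicle (3 libraries). Both groups therefore carried the floxed allele, and no group had an unmodified Mef2c locus. The CaMKIIα promoter is active in excitatory neurons of the forebrain. The labels do not say in which cells of a slice Cre acted. Another pair of groups, of the same genotypes, had received picrotoxin (100 µM) together with 4-aminopyridine (100 µM). These treated slices are used here only to show the same genes in a second set of libraries. The libraries labelled Cre are numbered Cre vehicle replicates 1 to 3 and those without Cre flox vehicle replicates 1 to 3. Whether each library came from an animal of its own is not said in the labels, and the p-values therefore speak only of the spread between libraries, which may be technical. In bulk RNA from a slice, fewer cells of a type and less RNA per cell cannot be told apart.

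MEF2C is a MADS-box transcription factor of the MEF2 family, which also holds MEF2A, MEF2B and MEF2D. These proteins bind A/T-rich elements as dimers, repress their targets while bound to class II histone deacetylases, and activate them when calcium signals from synaptic activity release that repression. In the forebrain MEF2C is expressed mainly in excitatory neurons, where it is known for regulating synapse number, and loss of a single copy in humans causes a neurodevelopmental disorder.

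Mef2c stood higher in each of the 3 libraries labelled Cre than in any library without it. Its values were 2143, 2209 and 2449 CPM in the vehicle libraries labelled Cre, against 883, 1129 and 995 CPM in those without Cre. The lowest library labelled Cre lay far above the highest library without Cre, and the spread within each group was small beside the gap. The means were 2267 ± 161 CPM in vehicle slices labelled Cre and 1002 ± 123 CPM in those without Cre (SD, n = 3 each), a log2 difference of 1.18 (SE 0.11). That the gene is higher in the columns labelled KO was known when it was chosen to come first, so these values are a description and no test of them is given. The direction goes against what a conditional deletion of the gene leads one to look for in the group labelled Cre. One value per gene (chr13:83504034-83667080 on the plus strand in GENCODE M21, GRCm38) does not tell if its transcripts lacked the floxed exon. For these reasons the groups are called by their labels throughout, and each direction holds only as far as the labels do, since an exchange of the labels would turn it.

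**Figure D1:**
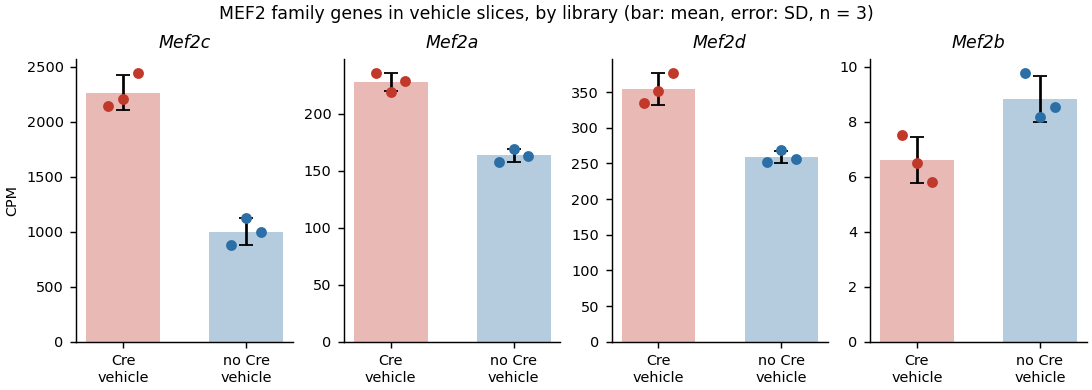
CPM (y axis, a separate scale for each gene) of the 4 MEF2 family genes in the 3 vehicle libraries labelled Cre (red) and the 3 without Cre (blue). Points are libraries, bars are means and error bars are SD (n = 3). Mef2c, Mef2a and Mef2d were higher and Mef2b lower in every library labelled Cre than in any library without Cre.

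The other members of the family are drawn with Mef2c in the plot of the family by library. Mef2a stood at 235, 219 and 229 CPM in the vehicle libraries labelled Cre, against 158, 169 and 163 CPM in those without Cre, a log2 difference of 0.48 (SE 0.08, limma adjusted p = 0.00188). Mef2d stood at 334, 352 and 378 CPM in the vehicle libraries labelled Cre, against 253, 268 and 257 CPM in those without Cre, a log2 difference of 0.45 (SE 0.06, limma adjusted p = 0.000607). Both rose, by less than Mef2c, and for both the groups did not overlap. Mef2b, the least abundant member, was lower at 7.51, 6.49 and 5.83 CPM in the vehicle libraries labelled Cre, against 9.79, 8.16 and 8.53 CPM in those without Cre, a log2 difference of -0.37 (limma adjusted p = 0.0265). That call was not stable, with a limma adjusted p of 0.0824 without Cre vehicle replicate 2, 0.109 without Cre vehicle replicate 3, 0.12 without flox vehicle replicate 1, 0.0609 without flox vehicle replicate 3. On the scale of CPM per kb of annotated exon, the level of Mef2c was 310 in vehicle slices labelled Cre and 137 in those without. Mef2d followed at 60.7 and 44.4, Mef2a at 40.0 and 28.7, and Mef2b at 4.71 and 6.29, so the order of the family was the same in both groups. Of the 4 class IIa histone deacetylase genes (Hdac4, Hdac5, Hdac7 and Hdac9), 0 passed in limma, beside 19.3% of all tested genes. With so few genes this count is no result about them. Their log2 differences ran from -0.29 to 0.10, with a median of -0.10.

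Genes next to Mef2c on chromosome 13 were looked at as well. Among the 10 other tested genes within 5 Mb, 2 were higher and 0 lower past the threshold. Within 10 Mb the counts were 5 higher and 5 lower of 58 genes (17.2%), close to the 19.3% of all tested genes. The nearest gene with a large difference was Adgrv1, an adhesion G protein-coupled receptor (chr13:81095068-81633154, minus strand), chosen after its values were seen. It stood at 13.5, 13.7 and 15.02 CPM in the vehicle libraries labelled Cre, against 5.78, 7.44 and 5.67 CPM in those without Cre, a log2 difference of 1.05 (limma adjusted p = 0.000183).

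Because MEF2 proteins bind a known element, the promoters of the tested genes were searched for the MEF2 consensus of 10 bases, which reads as its own reverse complement, so that both strands were covered. The windows came from RefSeq (GRCm38.p6), reached 250 bases before to 50 bases after each annotated start, and were found for 9854 of 13048 genes. A gene could have several starts (1.3 windows per gene on average, 1.42 for higher and 1.35 for lower genes), and a match in any window counted. The element was present for 195 of these genes (1.98%). Among genes higher in the libraries labelled Cre it was present for 12 of 869 (1.38%), and among lower genes for 24 of 1000 (2.4%). A match describes the letters of the window, not a binding site, and a window without a match says nothing of MEF2 proteins elsewhere at the gene. Of the genes past the threshold that differed over 2-fold and had a window, 2 of 50 higher (4%) and 1 of 28 lower genes (3.57%) carried the element, beside 1.98% of all. Counts this small were not tested. These 3 genes are shown because they combine the element with large differences: Inhba, the activin A subunit, Hrk, a pro-apoptotic BH3-only protein, and Filip1, an actin-binding regulator of filamin A. The window of Mef2a is added as that of a MEF2 gene. Each line runs 5′ to 3′ on the strand of the gene, and the capitals mark the MEF2 consensus.
Inhba: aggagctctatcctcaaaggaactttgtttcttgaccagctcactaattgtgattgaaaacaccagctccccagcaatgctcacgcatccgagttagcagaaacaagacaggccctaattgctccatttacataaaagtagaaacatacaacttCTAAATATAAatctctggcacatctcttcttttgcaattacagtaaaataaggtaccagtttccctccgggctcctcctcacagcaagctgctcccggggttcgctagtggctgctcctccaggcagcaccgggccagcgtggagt
Hrk: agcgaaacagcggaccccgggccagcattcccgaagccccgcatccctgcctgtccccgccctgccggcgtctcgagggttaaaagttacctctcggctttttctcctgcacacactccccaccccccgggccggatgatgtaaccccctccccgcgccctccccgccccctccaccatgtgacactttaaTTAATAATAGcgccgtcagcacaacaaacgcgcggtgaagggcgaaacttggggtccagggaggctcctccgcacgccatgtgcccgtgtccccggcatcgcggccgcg
Filip1: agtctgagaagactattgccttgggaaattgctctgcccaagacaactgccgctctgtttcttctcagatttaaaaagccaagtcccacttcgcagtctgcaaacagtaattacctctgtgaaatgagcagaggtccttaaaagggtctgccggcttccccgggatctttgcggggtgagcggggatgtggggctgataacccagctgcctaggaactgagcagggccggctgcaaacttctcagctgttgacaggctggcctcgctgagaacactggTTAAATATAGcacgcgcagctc
Mef2a: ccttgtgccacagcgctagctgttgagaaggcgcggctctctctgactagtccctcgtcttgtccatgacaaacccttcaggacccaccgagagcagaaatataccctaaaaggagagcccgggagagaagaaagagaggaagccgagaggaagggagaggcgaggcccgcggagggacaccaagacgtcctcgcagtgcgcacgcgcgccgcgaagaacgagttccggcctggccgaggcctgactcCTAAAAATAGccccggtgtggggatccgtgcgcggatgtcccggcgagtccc
The Inhba window lies at chr13:16011601-16011900 (plus strand), and its match starts at position -96 relative to the annotated start. That of Hrk lies at chr5:118169514-118169813 (plus strand) with the match at -59. That of Filip1 lies at chr9:79977833-79978132 (minus strand) with the match at 28, inside the transcribed part. That of Mef2a lies at chr7:67372809-67373108 (minus strand) with the match at -2, so that it spans the start. The windows of Hrk and Filip1 belong to inner RefSeq starts. They lie inside the genes as GENCODE M21 gives them (chr5:118164648-118189478 and chr9:79815051-80012851). Inhba stood at 26.3, 28.4 and 21.9 CPM in the vehicle libraries labelled Cre, against 7.50, 19.1 and 8.57 CPM in those without Cre, a log2 difference of 1.16 (limma adjusted p = 0.0112), and it did not pass without Cre vehicle replicate 2 or flox vehicle replicate 1 or 3 (limma adjusted p of up to 0.0573), nor in the fit of the 6 vehicle libraries alone (limma adjusted p = 0.0775). Hrk stood at 71.3, 73.8 and 67.5 CPM in the vehicle libraries labelled Cre, against 28.2, 29.01 and 33.8 CPM in those without Cre, a log2 difference of 1.20 (limma adjusted p = 3.36e-06). Filip1 stood at 8.07, 9.27 and 9.47 CPM in the vehicle libraries labelled Cre, against 21.6, 22.6 and 23.4 CPM in those without Cre, a log2 difference of -1.24 (limma adjusted p = 5.12e-06). None of these genes had overlapping groups, and they moved in both directions. Hrk and Filip1 were chosen after their values were seen.

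The vehicle libraries held 82235674 to 140390406 counted reads, and a single read amounted to 0.00712 to 0.0122 CPM. Mitochondrially encoded genes took 4.13%, 3.07% and 3.78% of the reads in the libraries labelled Cre, against 4.66%, 3.98% and 5.31% in those without. The summed level of 4 Y-linked genes was low in 1 library of each group, at 0.596 CPM in Cre vehicle replicate 1 and 3.89 CPM in flox vehicle replicate 2, and 90.4 to 96.5 CPM in the other vehicle libraries. The first principal component of the 6 libraries held 70.2% of the variance and separated the labels. Forebrain neuron markers were high, with Slc17a7, the vesicular glutamate transporter of cortical and hippocampal neurons, at 1766, 1808 and 1944 CPM in the vehicle libraries labelled Cre, against 1836, 1787 and 1872 CPM in those without Cre, and its groups overlapped. The defining markers Mog, of mature oligodendrocytes, and Ttr and Folr1, of the choroid plexus, lay below the filter. The dentate gyrus marker C1ql2 lay just below it, at a mean of 0.998 CPM. Of the genes nearest the filter, Mamstr, a coactivator of MEF2 proteins that lay just inside, averaged 0.931 CPM in vehicle slices labelled Cre and 1.09 CPM in those without. Ctxn2, just outside, averaged 1.17 CPM in vehicle slices labelled Cre and 0.817 CPM in those without.

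In limma with Benjamini-Hochberg adjustment, 2518 of the 13048 genes passed (19.3%), 1198 higher (9.18%) and 1320 lower (10.1%) in the libraries labelled Cre. The groups of 3 libraries did not overlap for 6690 genes (51.3%). Most differences were modest. The median was 0.41 among the higher and -0.40 among the lower genes on the scale of log2(CPM + 1), against 0.0048 over all tested genes, and the middle 90% of all genes lay between -0.42 and 0.44. A 2-fold difference was exceeded by 79 higher (0.605%) and 37 lower genes (0.284%). Higher genes were the more abundant, with a median of 52.9 CPM over the 12 libraries, against 23.8 CPM for lower genes and 25.9 CPM for all. The number of genes past the threshold was 1798, 1290 and 1358 without Cre vehicle replicates 1, 2 and 3 in turn, and 1173, 1932 and 1399 without flox vehicle replicates 1, 2 and 3 in turn.

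The largest rises included secreted and membrane proteins. Tmem114, a transmembrane protein gene, stood at 13.99, 11.8 and 16.1 CPM in the vehicle libraries labelled Cre, against 1.41, 2.17 and 1.91 CPM in those without Cre. Rspo2, an R-spondin that amplifies Wnt signalling, stood at 15.2, 15.3 and 13.3 CPM in the vehicle libraries labelled Cre, against 2.74, 2.91 and 2.28 CPM in those without Cre. Cyp26b1, which degrades retinoic acid, stood at 25.6, 25.1 and 31.1 CPM in the vehicle libraries labelled Cre, against 6.21, 5.62 and 5.62 CPM in those without Cre. In all 3 the lowest library labelled Cre lay several times above the highest without, and the log2 differences were 2.40, 2.10 and 2.05. Klk8, the secreted serine protease neuropsin, stood at 5.80, 6.96 and 7.04 CPM in the vehicle libraries labelled Cre, against 0.827, 1.27 and 1.13 CPM in those without Cre, and Thsd4, a matrix protein of microfibrils, at 20.5, 16.6 and 21.6 CPM in the libraries labelled Cre, against 4.90, 5.19 and 4.55 CPM without Cre. The matrix-modifying or matrix genes Tll2 (a tolloid-like metalloprotease), Tnn (a tenascin), Fap (a serine protease of the cell surface) and Ccbe1 (a secreted protein of lymphatic growth) rose by 1.66, 1.65, 1.61 and 1.57 on the log2 scale. Lipg, endothelial lipase, rose by 1.46 at a low level, 3.22, 4.58 and 3.60 CPM in the libraries labelled Cre, against 0.62, 0.722 and 0.887 CPM without Cre. Over all tested genes 120 averaged below 1 CPM in 1 of the genotypes, so that they reached the filter only through the other, and 52 of these passed the threshold. Klk8 and Tll2 among the largest rises, and Plk5 and Neurog2 among the largest falls, are such genes.

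Neuronal genes made up the rest of the 15 largest rises. Slc6a7, the proline transporter of glutamatergic terminals, stood at 254, 253 and 297 CPM in the vehicle libraries labelled Cre, against 68.4, 81.4 and 68.3 CPM in those without Cre, a log2 difference of 1.87 (SE 0.10, limma adjusted p = 1.03e-06). Hpcal4, a neuronal calcium sensor, stood at 474, 509.9 and 465 CPM in the vehicle libraries labelled Cre, against 165, 178 and 181 CPM in those without Cre, a log2 difference of 1.46 (SE 0.09). Calb2, the calcium buffer calretinin, stood at 62.8, 58.7 and 63.1 CPM in the vehicle libraries labelled Cre, against 14.2, 18.4 and 17.1 CPM in those without Cre, a log2 difference of 1.84. Slc6a7 and Hpcal4 were abundant genes, and all 3 had libraries close together in each group. Fibcd1, a membrane receptor for acetylated sugars and a marker of hippocampal field CA1, stood at 92.7, 103 and 102 CPM in the vehicle libraries labelled Cre, against 26.9, 31.5 and 20.8 CPM in those without Cre, and Neurod6, a bHLH transcription factor of pyramidal neurons, at 49.1, 49.2 and 44.7 CPM in the libraries labelled Cre, against 14.9, 14.7 and 12.03 CPM without Cre. Both passed in all 21 alternative analyses, at log2 differences of 1.89 and 1.72.

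**Figure D2:**
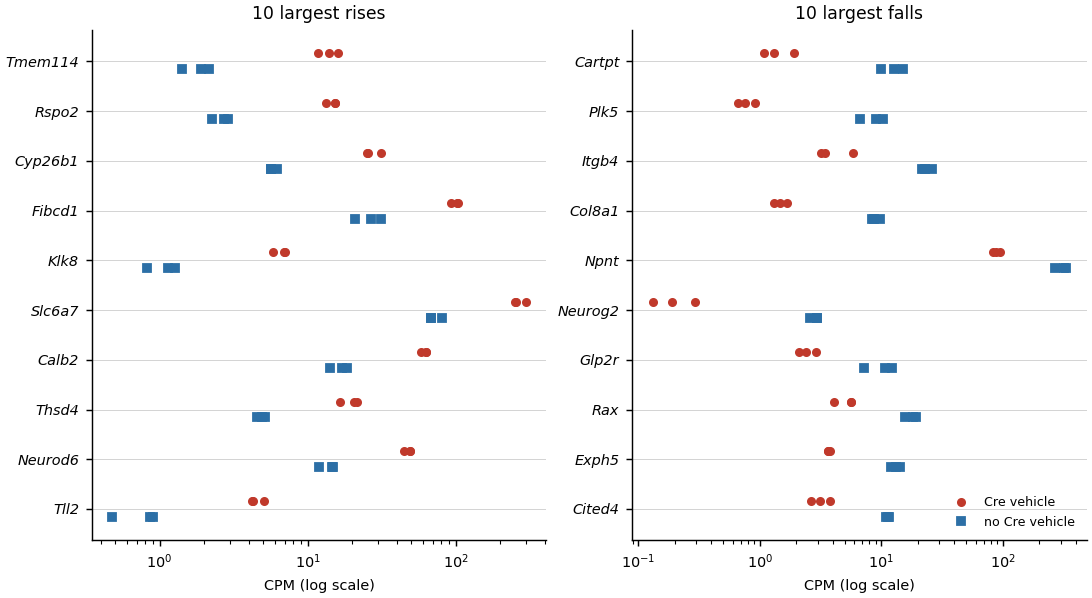
CPM by library (x axis, log scale) of the 10 largest rises (left) and the 10 largest falls (right) among genes past the limma threshold whose groups do not overlap. Red points are the 3 vehicle libraries labelled Cre and blue squares the 3 without Cre. The groups do not overlap for any gene shown, since the genes were chosen so. For Cartpt the highest library labelled Cre stood at 1.90 CPM and the lowest without Cre at 9.89 CPM.

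Among the falls, Cartpt, the precursor of the CART neuropeptide and a marker of layer 4, stood at 1.31, 1.08 and 1.90 CPM in the vehicle libraries labelled Cre, against 12.8, 15.2 and 9.89 CPM in those without Cre, a log2 difference of -2.48 (SE 0.16, limma adjusted p = 3.36e-06). Npnt, the matrix protein nephronectin and a marker of the dentate gyrus, was the most abundant of these genes, at 82.7, 88.6 and 94.6 CPM in the vehicle libraries labelled Cre, against 272, 332 and 320.5 CPM in those without Cre, a log2 difference of -1.78. Itgb4, an integrin subunit that binds laminin, stood at 5.82, 3.18 and 3.43 CPM in the libraries labelled Cre, against 21.5, 26.02 and 23.1 CPM without Cre, and the collagen gene Col8a1 at 1.31, 1.67 and 1.47 CPM in the libraries labelled Cre, against 8.35, 8.80 and 9.71 CPM without Cre. In each of these the groups were far apart, as the plot of the largest rises and falls shows. Plk5, a polo-like kinase, fell by 2.43, Glp2r, the receptor of glucagon-like peptide 2, by 1.65, and Gpr6, a receptor of striatal neurons, by 1.36 on the log2 scale. The transcription factor genes Neurog2 (proneural), Rax (a homeobox gene) and Cited4 (a partner of CBP and p300) fell by 1.68, 1.61 and 1.57. Exph5, an effector of Rab27, fell by 1.59, and Lypd1, a Ly6-family protein, by 1.40 at 47.6, 44.8 and 42.1 CPM in the libraries labelled Cre, against 122, 114 and 125 CPM without Cre. Atp6ap1l, an accessory protein of the vacuolar proton pump by its name, and Coch, the matrix protein cochlin, fell by 1.41 and 1.38.

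On the scale of CPM the picture was different, since abundant genes lead it. After Mef2c, the largest rises in CPM were those of Adcy1, the calcium-stimulated adenylyl cyclase, at 1144 ± 166 CPM in vehicle slices labelled Cre and 606 ± 43.7 CPM in those without Cre, and of Thra, a thyroid hormone receptor, at 840.1 ± 201 CPM in vehicle slices labelled Cre and 438 ± 14.6 CPM in those without Cre (SD, n = 3 each). Ddn, the dendritic protein dendrin, averaged 669 ± 140.0 CPM in vehicle slices labelled Cre and 275 ± 21.6 CPM in those without Cre, and Atp2a2, a calcium pump of the endoplasmic reticulum, 1429 ± 70 CPM in vehicle slices labelled Cre and 1086 ± 36.7 CPM in those without Cre (SD, n = 3 each). Cre vehicle replicate 2 stood highest of the 3 for Adcy1, Thra and Ddn. By library Thra stood at 683, 1067 and 769.7 CPM in the vehicle libraries labelled Cre, against 422, 450.5 and 441 CPM in those without Cre. Without Cre vehicle replicate 2 Thra did not pass (limma adjusted p = 0.0579). Thra shares its 3′ region with Nr1d1 on the opposite strand, and with no strand setting given in the sources used here their reads may be mixed. Among the largest falls in CPM were those of Gfap, the astrocyte filament, Nrgn (neurogranin, a calmodulin-binding protein of excitatory neurons), Gapdh and Igfbp5. Gfap changed by -0.39 with a limma adjusted p of 0.017 (0.0583 without Cre vehicle replicate 2, 0.0717 without Cre vehicle replicate 3, 0.0848 without flox vehicle replicate 1). Nrgn changed by -0.39, Gapdh by -0.38 and Igfbp5 by -0.51. These last 3 each missed the threshold in 11 of 21 alternatives, among them the analyses that left out Cre vehicle replicate 2 or 3 or flox vehicle replicate 1 or 3.

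The counts on the lists that follow stand beside 9.18% of all tested genes higher and 10.1% lower, 19.3% in all. The share of members past the threshold was close to that on the lists of NMDA receptors (16.7%), layer 6 (18.2%), autism and intellectual disability genes (18.8%), postsynaptic scaffolds (20%), retinoic acid genes (20%) and astrocytes (21.4%), and it was 25% for the Wnt pathway and for mural, fibroblast and meningeal markers. Marker lists of cortical layers moved unevenly. Of 9 layer 4 markers, 6 fell and 0 rose (median -0.49; 3 to 5 with 1 vehicle library left out, the lowest without Cre vehicle replicate 2 or 3 or flox vehicle replicate 1). Besides Cartpt these were Rspo1, an R-spondin, at -1.31, Whrn, the scaffold whirlin, at -0.89, Rorb, a nuclear receptor that specifies layer 4 neurons, at -0.67, Endou at -0.49 and Kcnh5 at -0.41. The calls of Endou and Kcnh5 were the weakest, with a limma adjusted p of up to 0.133 for Endou without Cre vehicle replicate 1, 2 or 3 or flox vehicle replicate 1 or 3 and up to 0.124 for Kcnh5 without Cre vehicle replicate 1, 2 or 3 or flox vehicle replicate 1 or 2. Rorb stood at 43.3, 41.01 and 37.5 CPM in the vehicle libraries labelled Cre, against 64.2, 68.7 and 62.9 CPM in those without Cre, and it had a limma adjusted p of 0.058 without Cre vehicle replicate 2, 0.0713 without Cre vehicle replicate 3, 0.0577 without flox vehicle replicate 1, 0.0544 without flox vehicle replicate 2. Scnn1a, Thsd7a and Lmo3 did not pass, with values from -0.17 to 0.20.

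Of 10 layer 2/3 markers, 5 fell and 2 rose (median -0.27). Those that fell were Rasgrf2, a Ras exchange factor, Stard8, a GTPase-activating protein, the calcium buffer gene Calb1 and the homeobox genes Cux2 and Cux1, by 1.16, 1.12, 0.67, 0.44 and 0.30. Mdga1, a cell-surface regulator of neuroligins, rose by 1.17, and Otof, a vesicle protein, by 0.65. Cux2 did not pass without Cre vehicle replicate 1 or 2 or flox vehicle replicate 1, 2 or 3 (limma adjusted p of up to 0.121), nor Otof without Cre vehicle replicate 2 or 3 or flox vehicle replicate 1 or 2 (up to 0.087). Rasgrf2 stood at 47.7, 45.1 and 53.9 CPM in the vehicle libraries labelled Cre, against 101, 117 and 114 CPM in those without Cre, and Mdga1 at 273, 288 and 277 CPM in the libraries labelled Cre, against 119, 143 and 111 CPM without Cre, without overlap in either. Layer 5 markers had 2 of 11 higher and 1 lower (median 0.09; the rises 1 to 2 with 1 vehicle library left out, the lowest without Cre vehicle replicate 1 or 3 or flox vehicle replicate 1 or 3), with Ldb2, a cofactor of LIM-domain proteins, at 1.31 and Parm1 at -0.69. The other rise was that of Deptor, an inhibitor of mTOR, at 0.41, with a limma adjusted p of 0.0795 without Cre vehicle replicate 1, 0.0578 without Cre vehicle replicate 3, 0.0592 without flox vehicle replicate 1, 0.0805 without flox vehicle replicate 3. Layer 6 markers had 2 of 11 higher and 0 lower (median 0.18; 0 to 1 with 1 vehicle library left out, the lowest without Cre vehicle replicate 3 or flox vehicle replicate 3).

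Hippocampal lists held some of the largest differences in both directions. Of 8 markers of CA1 and the subiculum, 3 rose and 0 fell (median 0.20; the rises 2 to 3 with any 1 vehicle library left out; the falls 0 to 1 with any 1 vehicle library left out), with Fibcd1 and the mannosidase gene Man1a, at 0.80, among the rises. Of 11 markers of CA2 and CA3, 3 rose, Neurod6, Rgs14 (a regulator of G-protein signalling enriched in CA2) at 1.07 and Necab2 (a calcium-binding protein) at 0.50. Rgs14 stood at 24.99, 31.1 and 28.1 CPM in the vehicle libraries labelled Cre, against 11.7, 12.9 and 13.8 CPM in those without Cre, with no overlap. The 2 that fell were Socs2 at -0.37 and Cacng5 at -0.25, of which Cacng5 did not pass with any 1 vehicle library left out (limma adjusted p of up to 0.145). Of 11 dentate gyrus markers, 3 rose and 4 fell (median -0.04; the falls also 4 with any 1 vehicle library left out). Calb2 and Tdo2, tryptophan dioxygenase, at 1.29 were among the rises, while Plk5, Npnt, Lct (lactase, -1.17) and Calb1 fell. Tdo2 and Plk5 reached the filter only through the genotype in which they are high, so a difference was built into their choice. Prox1, the homeobox gene that defines granule cells, did not differ by more than its spread, at 8.13, 7.25 and 7.59 CPM in the libraries labelled Cre, against 6.88, 8.24 and 8.05 CPM without Cre. Calb2 is held by 3 lists and Neurod6 by 3, so the counts are not separate observations.

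**Figure D3:**
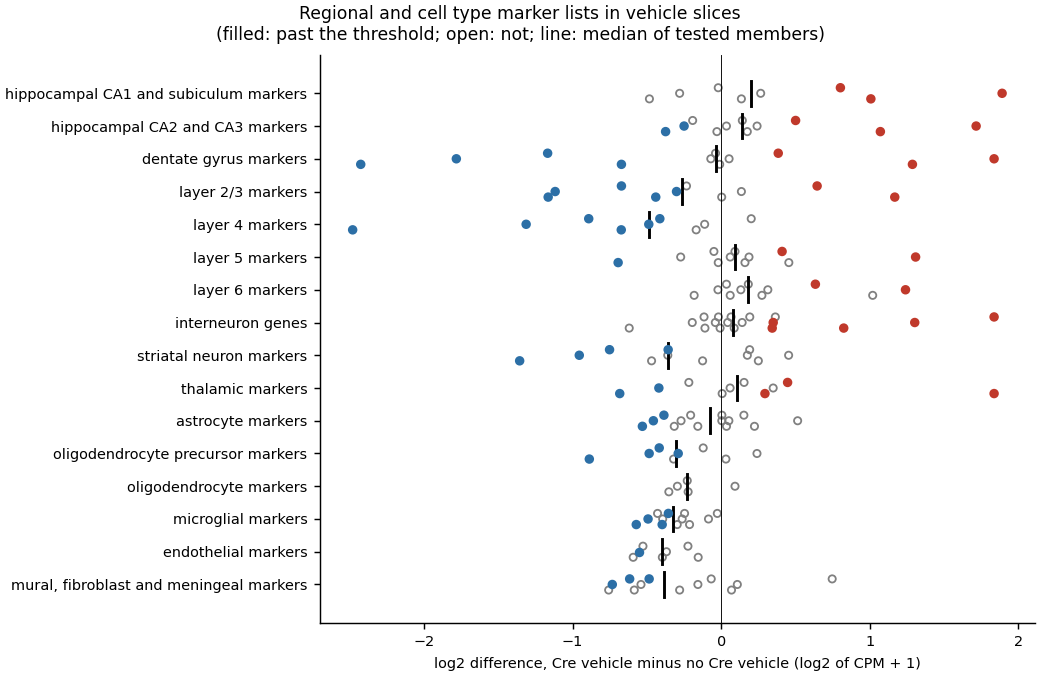
Log2 difference of each tested marker gene, vehicle libraries labelled Cre minus those without (x axis, log2 of CPM + 1), by region or cell type (y axis). Filled points passed the limma threshold (red higher, blue lower), open points did not, and black bars are medians. Layer 4 has its points and median (-0.49) mostly left of 0, and the glial and vascular lists below hold no filled red point.

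General neuronal genes did not move together. Of 11 genes of forebrain excitatory neurons, 4 rose and 3 fell (median 0.14). Neurod2, a bHLH factor, rose by 0.53 and Slc17a6, the other vesicular glutamate transporter, by 0.45, while Slc17a7 at 0.01 and Camk2a at 0.14 did not pass. Of 11 pan-neuronal genes, 3 rose and 3 fell, with a median of 0.00 that turned its sign with another scaling. The rises were 1 to 2 with 1 vehicle library left out, the lowest without Cre vehicle replicate 2 or 3 or flox vehicle replicate 1 or 3. The falls were 1 with any 1 vehicle library left out. Among them Map2, a microtubule protein of dendrites, rose by 0.37, and Nefm, a neurofilament subunit of axons, fell by 1.08. Nefm stood at 302, 308 and 288 CPM in the vehicle libraries labelled Cre, against 620.0, 657 and 630.1 CPM in those without Cre, with no overlap. The heavier neurofilament gene Nefh changed by -0.09 and did not pass.

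Of 18 genes of interneurons, 5 were higher and 0 lower (median 0.08). The rises were 2 to 4 with 1 vehicle library left out, the lowest without flox vehicle replicate 3. The list summed to 1183 to 1263 CPM over the vehicle libraries labelled Cre and 854 to 895 CPM over those without. Much of that gap lay in Cck (means of 271.6 CPM labelled Cre and 109.5 CPM without) and Calb2 (61.5 and 16.6 CPM), which is also on other lists. Cck, the peptide cholecystokinin, which excitatory neurons also make, stood at 264, 298 and 252 CPM in the vehicle libraries labelled Cre, against 114, 116 and 98.3 CPM in those without Cre, a log2 difference of 1.30. Sst, somatostatin, changed by 0.83 (limma adjusted p = 0.0193) and Gad2, a GABA-synthesising enzyme, by 0.34 (limma adjusted p = 0.0225). Sst had a limma adjusted p of 0.0865 without Cre vehicle replicate 2, 0.0526 without flox vehicle replicate 2, 0.0659 without flox vehicle replicate 3. Gad2 had one of 0.0679 without Cre vehicle replicate 1, 0.0757 without Cre vehicle replicate 3, 0.0809 without flox vehicle replicate 1, 0.0752 without flox vehicle replicate 3. Pvalb, parvalbumin, was at -0.62 and did not pass. Of 11 striatal markers 4 fell and 0 rose (median -0.36; 2 to 4 with 1 vehicle library left out, the lowest without flox vehicle replicate 1). In treated slices the striatal median was 0.04, with 3 markers lower and 1 higher. The dopamine receptor gene Drd2 stood at 3.77, 3.51 and 3.43 CPM in the vehicle libraries labelled Cre, against 6.04, 4.93 and 1.95 CPM in those without Cre, and did not pass. Of 10 thalamic markers 3 rose and 2 fell (median 0.11; the falls 0 to 1 with 1 vehicle library left out, the lowest without Cre vehicle replicate 3 or flox vehicle replicate 1 or 3), and Tcf7l2, a defining transcription factor of the thalamus, stood at 6.27, 4.28 and 5.63 CPM in the libraries labelled Cre, against 5.78, 6.65 and 6.71 CPM without Cre with overlap.

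Tested glial and vascular markers were lower or did not pass, with 0 called higher on any of these lists. Below the filter, Sox10, a transcription factor of the oligodendrocyte lineage, went the other way. It stood at 0.606, 0.402 and 0.435 CPM in the vehicle libraries labelled Cre, against 0.085, 0.12 and 0.205 CPM in those without Cre (limma adjusted p = 0.0118 in a fit without the filter). Of 12 microglial markers, 4 fell (median -0.33; 0 to 6 with 1 vehicle library left out, the lowest without Cre vehicle replicate 3 or flox vehicle replicate 1 or 3), all 12 had a negative difference, and they summed to 302 to 397 CPM over the vehicle libraries labelled Cre and 413 to 510.2 CPM over those without. C1qc, a subunit of complement C1q, changed by -0.57 (limma adjusted p = 0.013; 0.0588 without Cre vehicle replicate 3, 0.0663 without flox vehicle replicate 1, 0.0504 without flox vehicle replicate 3). The homeostatic markers P2ry12 and Tmem119 changed by -0.09 and -0.21 and did not pass. Of 8 markers of oligodendrocyte precursors, 4 fell (median -0.30; 1 to 4 with 1 vehicle library left out, the lowest without Cre vehicle replicate 2 or 3 or flox vehicle replicate 3), led by the matrix protein gene Matn4 at -0.89, which stood at 5.47, 5.07 and 4.63 CPM in the libraries labelled Cre, against 9.67, 9.65 and 11.3 CPM without Cre. Pdgfra, their defining growth factor receptor, was at -0.32 and did not pass, and mature oligodendrocyte markers had 0 of 5 past the threshold (median -0.23; the falls 0 to 1 with any 1 vehicle library left out). Of 14 astrocyte markers 3 fell (median -0.08; 1 to 3 with 1 vehicle library left out, the lowest without Cre vehicle replicate 3), including Aldh1l1, a folate enzyme, at -0.53, and the list summed to 17430 to 18880 CPM over the vehicle libraries labelled Cre and 19800 to 22290 CPM over those without. Gfap alone, whose call was not stable, averaged 8162 CPM in vehicle slices labelled Cre and 10680 CPM in those without.

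Endothelial markers had 1 of 7 lower (0 to 1 with 1 vehicle library left out, the lowest without Cre vehicle replicate 2 or 3 or flox vehicle replicate 1 or 3), with a median of -0.40. They summed to 62.8 to 80.9 CPM over the vehicle libraries labelled Cre and 86.9 to 122 CPM over those without. Markers of mural cells, fibroblasts and meninges had 3 of 12 lower (median -0.38; 0 to 6 with 1 vehicle library left out, the lowest without Cre vehicle replicate 2 or 3 or flox vehicle replicate 3). The genes of the cell matrix moved beside them. Of 26 collagens, 8 fell and 0 rose (median -0.28; 2 to 12 with 1 vehicle library left out, the lowest without Cre vehicle replicate 2 or flox vehicle replicate 1 or 3). Col8a1 and Col5a3, at -0.65, passed in every alternative, while the fibrillar genes Col1a1 and Col3a1, at -0.76 and -0.58, did not pass. Of 17 integrins, 6 fell and 1 rose (median -0.23; the falls 2 to 7 with 1 vehicle library left out, the lowest without Cre vehicle replicate 2 or 3; the rises 0 to 1 with 1 vehicle library left out, the lowest without Cre vehicle replicate 2), with Itgav at -0.53 beside Itgb4. The rise was that of Itga11, which reached the filter only through the libraries labelled Cre. Interferon genes, 4 of 13 lower (median -0.44; 3 to 7 with any 1 vehicle library left out), included the antiviral membrane protein gene Ifitm3 at -0.77 and B2m, the light chain of class I molecules, at -0.48. In treated slices (fit over all 12 libraries) some of these medians lay near 0. They were -0.01 for endothelial markers, 0.05 for mural, fibroblast and meningeal markers and -0.01 for collagens, of which 1 was lower there. They stayed negative for microglia (-0.18), oligodendrocyte precursors (-0.11), mature oligodendrocytes (-0.17), astrocytes (-0.06), integrins (-0.11) and interferon genes (-0.19). The part of cell composition in these lists, and in the synaptic lists that follow, was not tested.

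Synaptic genes moved in both directions, and rises outnumbered falls for AMPA, kainate and GABA-A receptors in vehicle slices. Of 21 genes of AMPA and kainate receptors and their auxiliary proteins, 7 rose and 3 fell (median 0.17; the rises 5 to 7 with any 1 vehicle library left out; the falls 0 to 1 with 1 vehicle library left out, the lowest without Cre vehicle replicate 2 or flox vehicle replicate 1, 2 or 3). Gria1, the GluA1 subunit, stood at 424, 394 and 395 CPM in the vehicle libraries labelled Cre, against 276, 284 and 274 CPM in those without Cre, a log2 difference of 0.54 (limma adjusted p = 6.15e-05). Shisa6, an auxiliary subunit that keeps AMPA receptors at the postsynapse, stood at 71.3, 71.5 and 64.6 CPM in the vehicle libraries labelled Cre, against 29.04, 33.7 and 33.4 CPM in those without Cre, a log2 difference of 1.09. Neither gene's groups overlapped. Neto1, an auxiliary subunit of kainate receptors, rose by 0.48 and Cnih3, a cornichon, by 0.47. NMDA receptor genes had 1 of 6 higher and 0 lower (median -0.01; 0 to 1 with 1 vehicle library left out, the lowest without Cre vehicle replicate 1 or flox vehicle replicate 3), and the obligatory subunit Grin1 was at -0.25 and did not pass. Metabotropic glutamate receptor and Homer genes had 2 of 10 higher and 2 lower (the rises 1 to 2 with 1 vehicle library left out, the lowest without Cre vehicle replicate 1, 2 or 3 or flox vehicle replicate 1 or 3; the falls 1 to 2 with 1 vehicle library left out, the lowest without Cre vehicle replicate 1 or 2 or flox vehicle replicate 1 or 2). Grm3, a receptor of neurons and astrocytes, fell by 0.32.

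For GABA-A receptors, which carry fast inhibition, 5 of 12 subunit genes rose and 1 fell (median 0.16; 3 to 4 with 1 vehicle library left out, the lowest without Cre vehicle replicate 2 or 3 or flox vehicle replicate 1). Gabra5, a subunit of extrasynaptic receptors in the hippocampus, stood at 135, 156 and 141 CPM in the vehicle libraries labelled Cre, against 83.05, 88.5 and 77.1 CPM in those without Cre, a log2 difference of 0.79 (limma adjusted p = 1.73e-05). Gabrd, the extrasynaptic delta subunit of dentate granule cells, stood at 39.4, 43.7 and 42.1 CPM in the vehicle libraries labelled Cre, against 62.3, 61.7 and 58.4 CPM in those without Cre, a log2 difference of -0.53 (limma adjusted p = 0.00277). The subunits with extrasynaptic roles thus moved in opposite directions, without overlap of the groups. In treated slices (fit over all 12 libraries) 2 GABA-A receptor genes were higher and 1 lower, with a median of -0.01. AMPA and kainate receptor genes had 6 higher and 1 lower there, with a median of 0.10.

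Postsynaptic scaffolds had 2 of 15 higher and 1 lower (median 0.03; the rises 0 to 2 with 1 vehicle library left out, the lowest without Cre vehicle replicate 2 or 3 or flox vehicle replicate 1 or 3), and Dlg1, the scaffold SAP97, fell by 0.55 at 84.2, 86.2 and 89.7 CPM in the libraries labelled Cre, against 123, 132 and 128 CPM without Cre. Of 39 synaptic adhesion genes, 8 rose and 5 fell (the rises 3 to 8 with 1 vehicle library left out, the lowest without flox vehicle replicate 1 or 3; the falls 2 to 3 with 1 vehicle library left out, the lowest without Cre vehicle replicate 3 or flox vehicle replicate 1 or 3). Ntng2, a netrin-G that binds a postsynaptic ligand, stood at 117, 115 and 122 CPM in the vehicle libraries labelled Cre, against 61.3, 53.96 and 50.95 CPM in those without Cre, and its relative Ntng1 at 5.74, 5.21 and 4.77 CPM in the libraries labelled Cre, against 9.75, 7.70 and 9.69 CPM without Cre. The log2 differences were 1.08 and -0.68. Ntng1 had a limma adjusted p of 0.054 without Cre vehicle replicate 3, 0.0578 without flox vehicle replicate 1, 0.0514 without flox vehicle replicate 3. The secreted C1q-family synapse organisers C1ql3, Cbln1 and Cbln2 rose by 0.99, 0.74 and 0.66 (Cbln2 did not pass without Cre vehicle replicate 1 or 2 or flox vehicle replicate 1 or 3, limma adjusted p of up to 0.101), and the leucine-rich repeat proteins Lrrtm4 and Flrt3 fell by 0.68 and 0.56. Of 30 vesicle and active-zone genes, 9 rose and 3 fell (median 0.06; 5 to 7 with 1 vehicle library left out, the lowest without Cre vehicle replicate 2 or 3 or flox vehicle replicate 1 or 3). Syn2, a synapsin, rose by 0.55, and Stx1a, a SNARE of the plasma membrane, fell by 0.57 at 211, 238 and 213 CPM in the libraries labelled Cre, against 324, 340.3 and 316 CPM without Cre.

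Among ion channel genes rises outnumbered falls in vehicle slices. Of 51 potassium channel genes, 11 rose and 7 fell (median 0.07; the rises 6 to 10 with 1 vehicle library left out, the lowest without flox vehicle replicate 3; the falls 3 to 5 with 1 vehicle library left out, the lowest without Cre vehicle replicate 2 or flox vehicle replicate 1 or 2). Kcnq3, a subunit of the M-channel, rose by 0.47, and Kcnj6, a G-protein-gated channel, by 0.41. Kcnc4, a voltage-gated channel of the Kv3 family, fell by 0.45. Kcnq3 stood at 315, 298 and 324 CPM in the vehicle libraries labelled Cre, against 215, 234 and 228 CPM in those without Cre, with no overlap. Of 26 sodium, calcium and HCN channel genes, 8 rose and 1 fell (median 0.16; 3 to 6 with 1 vehicle library left out, the lowest without Cre vehicle replicate 2 or 3). Cacna1h, a T-type calcium channel, rose by 0.67, and the hyperpolarisation-activated channel Hcn3 by 0.45. In treated slices (fit over all 12 libraries) 6 potassium channel genes were higher and 7 lower, with a median of 0.01. Sodium, calcium and HCN channel genes had 6 higher and 1 lower there, with a median of -0.0049.

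Of 60 axon guidance genes, 20 rose and 7 fell (45% past the threshold, against 19.3% of all genes; median 0.12). With 1 vehicle library left out, 12 to 17 were higher and 3 to 7 lower, the fewest higher without Cre vehicle replicate 3 or flox vehicle replicate 1 and the fewest lower without Cre vehicle replicate 2. Among ligands, Slit1 stood at 56.6, 58.9 and 51.96 CPM in the vehicle libraries labelled Cre, against 26.98, 29.02 and 26.2 CPM in those without Cre and Slit2 at 19.6, 18.7 and 17.8 CPM in the libraries labelled Cre, against 31.7, 31.4 and 30.9 CPM without Cre. These repellents moved in opposite directions, at 1.00 and -0.71. The semaphorin gene Sema4a rose by 0.97, and Ntn4, a netrin, fell by 0.68. Among receptors, the plexins Plxna2 and Plxna4 rose by 0.82 and 0.53, Unc5a, a netrin receptor, by 0.64, and 6 Eph receptors of the A class rose, from 0.43 for Epha4 to 0.85 for Epha3 with Epha5, Epha6, Epha7 and Epha8 between. Epha4 did not pass without Cre vehicle replicate 1, 2 or 3 or flox vehicle replicate 1 or 3 and Epha5 not without Cre vehicle replicate 2 or 3 or flox vehicle replicate 1 (limma adjusted p of up to 0.187 and 0.0765). Of the ephrins, their ligands, Efna3 rose by 0.68 and Efna5 fell by 0.49.

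Of 25 cadherins and protocadherins, 5 rose and 4 fell (the falls 1 to 3 with 1 vehicle library left out, the lowest without flox vehicle replicate 2). Cdh9, a cadherin of synapses between dentate gyrus and CA3, stood at 16.1, 15.3 and 13.1 CPM in the vehicle libraries labelled Cre, against 6.41, 6.39 and 5.89 CPM in those without Cre, a log2 difference of 1.13, and Pcdh8, an activity-regulated protocadherin, fell by 0.62. In the Wnt pathway 4 of 36 genes rose and 5 fell (median -0.08; the falls 2 to 5 with 1 vehicle library left out, the lowest without Cre vehicle replicate 2 or flox vehicle replicate 1). The R-spondins split, with Rspo2 and Rspo3 higher by 2.10 and 0.64 and Rspo1 lower at 2.13, 2.82 and 2.69 CPM in the libraries labelled Cre, against 8.15, 7.12 and 8.13 CPM without Cre. The ligand gene Wnt7b stood at 122, 127 and 112 CPM in the vehicle libraries labelled Cre, against 65.3, 60.9 and 57.6 CPM in those without Cre, a log2 difference of 0.96, and Wnt9a fell by 0.83. Of 15 retinoic acid genes, 1 rose, Cyp26b1, and 2 fell, among them Dhrs3, a retinal reductase, at -0.39. The falls were 1 to 3 with 1 vehicle library left out, the lowest without Cre vehicle replicate 2 or 3 or flox vehicle replicate 1. Dhrs3 had a limma adjusted p of 0.0894 without Cre vehicle replicate 2, 0.0936 without Cre vehicle replicate 3, 0.119 without flox vehicle replicate 1, 0.0953 without flox vehicle replicate 3.

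Activity-regulated genes did not move as 1 group. Of 26 immediate early genes, 5 rose and 5 fell (median -0.21; the rises 4 to 6 with any 1 vehicle library left out; the falls 4 to 5 with any 1 vehicle library left out). Nptx2, a pentraxin that clusters AMPA receptors, stood at 192, 225 and 181 CPM in the vehicle libraries labelled Cre, against 55.3, 100.2 and 88.9 CPM in those without Cre, a log2 difference of 1.32 (limma adjusted p = 0.00267). Bdnf, a neurotrophin and candidate MEF2 target, stood at 22.7, 26.6 and 19.02 CPM in the vehicle libraries labelled Cre, against 9.39, 15.3 and 15.1 CPM in those without Cre, a log2 difference of 0.75 (limma adjusted p = 0.00915). Egr1, a zinc-finger factor, stood at 106, 114 and 117 CPM in the vehicle libraries labelled Cre, against 174, 204 and 220.3 CPM in those without Cre, a log2 difference of -0.82 (limma adjusted p = 0.000356). Groups did not overlap for these 3, and the family of Egr1 was split, with Egr2 and Egr4 lower by 0.96 and 0.99 and Egr3 higher by 0.73. Fos, Fosb, Npas4 and Arc did not pass. Npas4, an activity-dependent transcription factor, stood at 17.9, 24.6 and 15.2 CPM in the vehicle libraries labelled Cre, against 20, 69.6 and 10.7 CPM in those without Cre, and flox vehicle replicate 2 was the highest of the 6 libraries for Npas4, Fos and Fosb. Of 19 candidate MEF2 targets, 5 rose and 2 fell (median 0.03; the rises 2 to 6 with 1 vehicle library left out, the lowest without flox vehicle replicate 3), a share of 36.8% past the threshold, beside 19.3% of all tested genes. The falls were 1 with any 1 vehicle library left out. In treated slices (fit over all 12 libraries) the excess of rises was absent, with 1 candidate target higher and 3 lower (median -0.06). There 7.5% of all tested genes were higher and 5.95% lower. Besides Bdnf the higher ones in vehicle slices were Kcna1, Arhgap32, Lgi1 and Adgrl3, and Klf4 fell with Egr1. Other lists had a share like that of the candidate targets, 35.3% for potassium channels, 36% for cadherins and protocadherins and 40% for vesicle and active-zone genes. The share was lower for NMDA receptors (16.7%) and postsynaptic scaffolds (20%). With single libraries left out, Kcna1 did not pass without flox vehicle replicate 3, Arhgap32 not without Cre vehicle replicate 3 or flox vehicle replicate 1 or 3, Adgrl3 not without Cre vehicle replicate 1 or 2 or flox vehicle replicate 1 or 3, and Klf4 with any 1 vehicle library left out (limma adjusted p of up to 0.131).

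Of 21 neuropeptide and granule genes, 6 rose and 1 fell (median 0.10; the rises 4 to 6 with any 1 vehicle library left out; the falls 1 to 2 with any 1 vehicle library left out). Scg2, the granule protein secretogranin II, stood at 130.3, 151 and 114 CPM in the vehicle libraries labelled Cre, against 48.4, 57.5 and 52.7 CPM in those without Cre, a log2 difference of 1.30. It rose with Cck and Vgf, at 0.70, and the fall was that of Cartpt. Of 22 bHLH and Id genes, 4 rose and 4 fell (median -0.12; the falls 2 to 3 with 1 vehicle library left out, the lowest without Cre vehicle replicate 3 or flox vehicle replicate 2). Neurod6, Neurod2 and Npas2 rose, while Neurog2, which acts in progenitors, stood at 0.131, 0.188 and 0.292 CPM in the vehicle libraries labelled Cre, against 2.99, 2.57 and 2.98 CPM in those without Cre, and reached the filter only through the libraries without Cre. Of 24 transporters of amino acids and transmitters, 7 rose and 1 fell (median 0.05; the rises 4 to 7 with 1 vehicle library left out, the lowest without Cre vehicle replicate 2 or flox vehicle replicate 1; the falls 0 to 3 with 1 vehicle library left out, the lowest without Cre vehicle replicate 1 or 2 or flox vehicle replicate 3). After Slc6a7 the largest was Slc7a14 at 0.88, and Slc6a17, a vesicular amino acid transporter, rose by 0.39. Of 32 genes of autism and intellectual disability, 5 rose and 1 fell (median 0.20; the rises 2 to 4 with 1 vehicle library left out, the lowest without flox vehicle replicate 1; the falls 0 to 1 with 1 vehicle library left out, the lowest without Cre vehicle replicate 2 or 3 or flox vehicle replicate 1, 2 or 3), among them Dscam, an adhesion molecule, at 0.38.

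Lists of cell state had few calls. Cell cycle genes (14 tested) and heat shock genes (12 tested) had 0 past the limma threshold, with medians of 0.01, which turned its sign with another scaling, and 0.03. Hypoxia and glycolysis genes had 1 of 16 lower, Gapdh (median -0.10; 0 with any 1 vehicle library left out). The 13 mitochondrially encoded genes had a median of -0.46, and 0 passed. Over all genes 4562 had an unadjusted limma p below 0.05.

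The same genes were looked at in the treated slices, which share no library with the vehicle slices. The summed level of the Y-linked genes was low in the same numbers as in vehicle slices, at 0.395 CPM in Cre treated replicate 1 and 0.522 CPM in flox treated replicate 2, against 95.95 to 119 CPM in the other treated libraries. Vehicle and treated libraries of the same number may therefore come from the same animals, and they are not independent sets. In the fit over all 12 libraries 13.5% of the genes passed in treated slices, 7.5% higher and 5.95% lower in those labelled Cre. To keep the sets apart, each 6 libraries were then fitted on their own. In the 6 vehicle libraries 2657 genes were higher (20.4%) and 2325 lower (17.8%), 38.2% in all, and in the 6 treated libraries 330 were higher and 284 lower (4.71% in all). Of the genes higher in vehicle slices labelled Cre, 2503 (94.2%) had the same sign in treated slices and 308 (11.6%) passed there. Of the lower ones 2208 (95%) had the same sign and 257 (11.1%) passed. Among all tested genes 78.5% had the same sign, and among genes not called in vehicle slices 68.7% did and 0.459% passed in the same direction, so that a shared sign was common without a call. The larger differences nearly all had the same sign in treated slices, but not all of them passed there. Of 81 genes higher over 2-fold all had the same sign and 64 (79%) passed. Of 36 lower ones 35 had the same sign and 35 passed. Lcn2, lipocalin 2, was the exception in sign, at 14.9, 11.5 and 18.1 CPM in the vehicle libraries labelled Cre, against 34.5, 33.9 and 27.2 CPM in those without Cre, and at 11.2, 25.5 and 21.7 CPM in the treated libraries labelled Cre, against 31.2, 14.8 and 13.2 CPM in those without Cre. It had a log2 difference of -1.07 in vehicle and 0.01 in treated slices, and its call in vehicle slices was lost with any 1 vehicle library left out (limma adjusted p of up to 0.13).

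**Figure D4:**
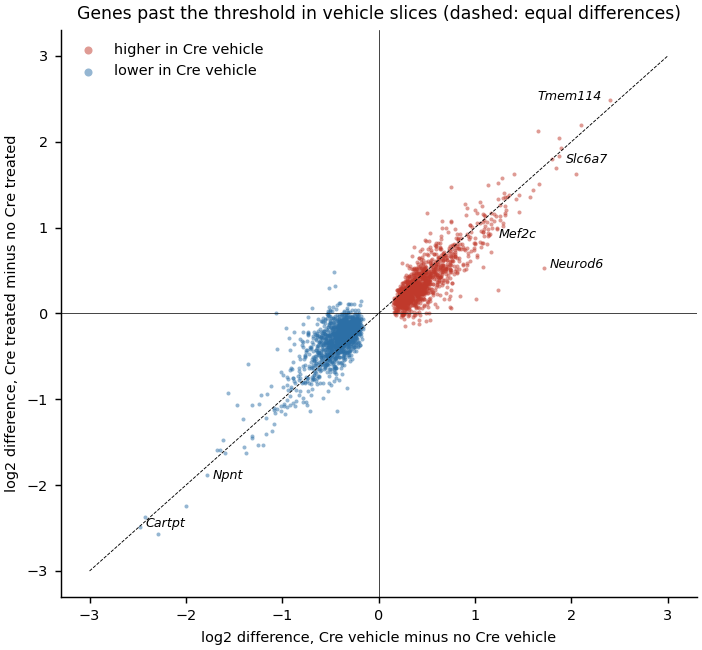
Log2 difference in vehicle slices (x axis, labelled Cre minus without Cre) and in treated slices (y axis, same contrast) of the 2518 genes past the threshold in vehicle slices. The dashed line marks equal differences. Points run along the line from Cartpt (-2.48 in vehicle) to Tmem114 (2.40 in vehicle), with Neurod6 below it.

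Mef2c differed by 1.18 in vehicle and by 1.00 in treated slices, Slc6a7 by 1.87 and 1.83, Npnt by -1.78 and -1.88, and Cartpt by -2.48 and -2.49. Neurod6 stood at 49.1, 49.2 and 44.7 CPM in the vehicle libraries labelled Cre, against 14.9, 14.7 and 12.03 CPM in those without Cre, and at 31.4, 45.6 and 32.9 CPM in the treated libraries labelled Cre, against 23.1, 29.9 and 21.6 CPM in those without Cre. Its log2 difference was 1.72 in vehicle and 0.53 in treated slices. The test of the change itself, the interaction over all 12 libraries, passed for 0 of the 2518 genes called in vehicle slices and for 3 of all genes (0.023%), with 568 genes at an unadjusted p below 0.05 in limma. With each same-numbered vehicle and treated library of a genotype as a pair it passed for 0 genes, with 624 at an unadjusted p below 0.05. For Neurod6 the interaction was -1.18 (limma adjusted p = 0.168, and 0.146 with the pairs). No call of the vehicle comparison was shown by this test to differ in treated slices.

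Gene length was not part of the rule and differed between the groups of genes. For the 12434 tested genes with coordinates in GENCODE M21 (95.3%), the median length with introns was 54.0 kb for higher genes, 21.6 kb for lower genes and 27.3 kb for all tested genes. The median exonic length was 4.56, 3.11 and 3.52 kb in the same order. The share of higher genes grew along the length bins, 5.51% under 10 kb, 6.68% at 10 to 30 kb, 9.22% at 30 to 100 kb, 17.86% at 100 to 300 kb and 22.68% over 300 kb. The share of lower genes was 12.67% in the shortest bin and 8.24% to 10.86% in the others. Among genes over 2-fold the difference was not the same, with medians of 33.2 kb for 76 higher and 43.6 kb for 37 lower genes. By chromosome, the share past the threshold ran from 16.32% on chromosome 13, which holds Mef2c, to 22.2% on chromosome 15, against 19.3% of all genes.

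**Figure D5:**
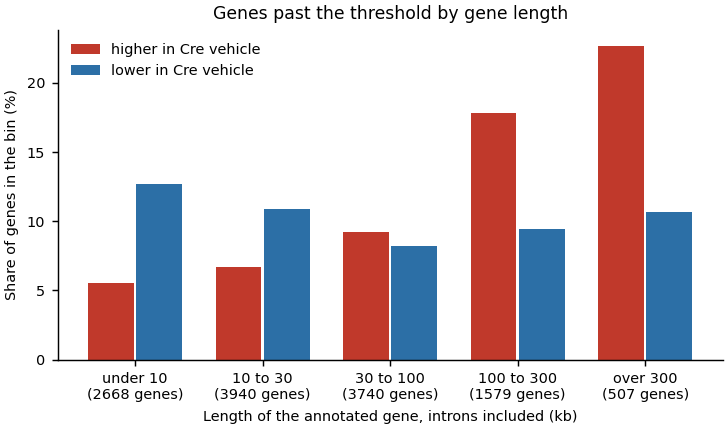
Share of tested genes past the limma threshold (y axis, %) in 5 bins of annotated gene length with introns (x axis, kb), for genes higher (red) and lower (blue) in vehicle slices labelled Cre. The red bars grow with each bin to 22.68% over 300 kb, and the tallest blue bar, 12.67%, is that of the shortest genes.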

How the data were processed

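Polyadenylated RNA from mouse organotypic brain slices was read as 150 bp pairs. The deposited values are CPM, which the authors computed per library over 21967 gene symbols. Per the submitters' processing notes, FastQC, Trimmomatic, STAR, DESeq2 and the mm10 genome were used. Versions, counting tool, annotation and strandedness were not given in the sources used here, so reads of overlapping genes, and of genes with near-identical copies such as Gapdh, may be mixed. Columns named KO and WT were taken as the labels with and without Cre.

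Of the symbols, 13048 reached a mean CPM of 1 over the 12 columns and were tested, 8919 lay below, and 3308 of these were at 0 throughout. Values were taken as log2(CPM + 1), which makes changes of genes near 1 CPM smaller than their ratios. One mean per group (4 groups) was fitted over all 12 columns in limma 3.58.1 (R 4.3.3; trend, robust), so that the treated libraries contribute to the spread per gene. The contrast was Cre vehicle minus flox vehicle, two-sided, adjusted by Benjamini-Hochberg over all tested genes (threshold 0.05). Lists are described by counts and medians. Whole reads were recovered from the steps of the deposited CPM for 100% of values (within 0.001 of a read). These gave the depth of 82235674 to 140390406 reads and limits for a count of 0 (3 reads, 0.0214 to 0.0365 CPM), which cover counting error only. They were also used for the alternative tests in edgeR 4.0.16 and DESeq2 1.42.0. The fits were tested on simulated data. The other alternatives were pseudocounts of 0.1 and 5, other filters, scaling by median ratios, leaving out mitochondrially encoded genes, the 6 vehicle libraries alone, a replicate block, array weights, plain moderation (no trend, not robust), a Y-linked covariate, and leaving out each vehicle library. Leaving out both libraries of low Y-linked level and pairing vehicle with treated libraries for the interaction were added after the data were seen.

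Named genes were the MEF2 family, the 15 largest rises and falls and the 5 largest rises and falls in CPM among passing genes without overlap, and up to 4 passing members of each list with the smallest p. Predicted, Y-linked and mitochondrially encoded genes and Xist were left out of the largest changes. The text also names 34 passing genes chosen after their values were seen, among them Adgrv1, Hrk, Filip1, Lcn2 and several Eph receptors, and further list members that did not pass. Some genes that meet these rules are not reported here. The comparison, the members and the 48 lists were chosen with earlier results of these data known. Of 885 list entries 7 are under no symbol of the table. Gene positions came from GENCODE M21 (GRCm38, the assembly of mm10), matched by symbol for 12434 tested genes, and promoters from RefSeq (GRCm38.p6).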

Additional observations from a re-analysis of the deposited data

Results flagged for a closer look

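Hes5, an effector of Notch signalling and a marker of astrocytes and progenitors, had opposite genotype differences in vehicle and treated slices with no overlap of libraries in either. In vehicle slices it stood at 1.87, 2.44 and 1.62 CPM in the vehicle libraries labelled Cre, against 2.58, 3.23 and 3.42 CPM in those without Cre, a log2 difference of -0.46 (limma adjusted p = 0.0276). In treated slices it stood at 0.756, 1.31 and 1.14 CPM in the treated libraries labelled Cre, against 0.681, 0.609 and 0.642 CPM in those without Cre, a log2 difference of 0.32 (0.3234 before rounding, limma adjusted p = 0.122). The difference between them was tested as the interaction, 0.78 on the log2 scale, and did not pass (limma adjusted p = 0.362). The vehicle call was lost without Cre vehicle replicate 1 or 3 or flox vehicle replicate 2 or 3 (limma adjusted p of up to 0.111). Groups of 3 libraries were not screened for single outlying libraries.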

How the results depend on the processing

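Mef2c had log2 differences from 1.09 to 1.31 in the 21 alternatives. Of the 194 genes named by rule or added, 131 passed in every alternative, 63 missed the threshold in at least 1, and 0 changed sign. The count of 2518 genes (1198 higher, 1320 lower) moved with the samples and the test. A fit of the 6 vehicle libraries alone gave 4982 (2657 and 2325), array weights 5393 (2771 and 2622), and leaving out both libraries of low Y-linked level 1393 (651 and 742). With 1 vehicle library left out it lay between 1173 and 1932 (614 to 930 higher, 559 to 1002 lower), lowest without flox vehicle replicate 1. DESeq2 called 1816 genes higher. The cause of these shifts was not tested. The genes over 2-fold, 79 higher and 37 lower, were 35 and 16 with a pseudocount of 5, and the lower ones 65 with a pseudocount of 0.1. On recovered reads the lower ones were 76 in edgeR with TMM, 73 in edgeR with DESeq2 size factors and 76 in DESeq2, and the higher ones 120 and 122 in the last 2. Higher genes were 47.6% of the calls, and 56.3% with median-ratio scaling.

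The labels do not say if the replicate numbers pair the Cre vehicle with the flox vehicle libraries. Correlations between the libraries do not decide it. Same-numbered libraries of the vehicle groups deviated from their group means with correlations of 0.02, -0.11 and 0.23, and not every library correlated best with its own number. With the number as a replicate block 2566 genes passed (1239 higher, 1327 lower), of which 2329 were among the 2518. Between vehicle and treated libraries of the same genotype and number the correlations were 0.17, 0.14 and 0.48 for Cre replicates 1 to 3 and 0.06, 0.41 and 0.07 for flox replicates 1 to 3. Here too not every library correlated best with its own number. Flox vehicle replicate 1 reached 0.10 with flox treated replicate 3, and flox vehicle replicate 3 reached 0.13 with flox treated replicate 1. A fit with the 6 same-numbered pairs as a replicate block, added after the data were seen, called 0 genes for the interaction, against 3 without it. A read was worth at most 0.0122 CPM, so differences of that size are not detectable at this depth.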

Other observations

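Genes with a mean below 1 CPM over the 12 libraries were left out of the comparison, but some were separated between the genotypes of vehicle slices. In a fit without the filter, 128 of 5611 such genes with any read were higher and 141 lower in the libraries labelled Cre (4.79% called). Spink8, a serine protease inhibitor of the Kazal type by its name, stood at 1.47, 1.75 and 1.90 CPM in the vehicle libraries labelled Cre, against 0.061, 0.074 and 0.026 CPM in those without Cre (limma adjusted p = 2.14e-05). Cdx1, a caudal-type homeobox gene of the gut, stood at 1.54, 1.80 and 2.02 CPM in the vehicle libraries labelled Cre, against 0, 0.148 and 0.009 CPM in those without. The count of 0 for Cdx1 in flox vehicle replicate 1 allows up to 0.0365 CPM. Ntf3, neurotrophin 3, stood at 0.414, 0.325 and 0.378 CPM in the vehicle libraries labelled Cre, against 1.72, 1.38 and 1.45 CPM in those without. Its log2 difference was -0.87 (limma adjusted p = 0.000306). These genes were chosen after their values were seen.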
